A study of Mus musculus with 18 samples.

Results

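The genes described here are 10 genes of antigen presentation by major histocompatibility complex (MHC) class I and class II molecules. They were chosen by their symbols in the table of estimated counts, as 4 class I genes (*H2-K1*, *H2-D1*, *H2-T23* and *B2m*) and 6 class II genes (*Cd74*, *H2-Aa*, *H2-Ab1*, *H2-Eb1*, *H2-DMa* and *Ciita*), out of 31053 genes listed. All 10 were among the 12290 genes that passed the filter on low counts. RNA-Seq was performed on bone marrow (BM)-derived macrophages of 3 knockout mice, in which *Slc7a7* is deleted by a Cre recombinase driven by the *Lyz2* (LysM) promoter of myeloid cells, and of 3 wild type mice, all 12 weeks old and on the C57Bl/6J background. Cells of each mouse were kept for 24 h with vehicle (PBS, the control medium), with 50 μg/mL of acetylated LDL (Ac-LDL) or with 100 μg/mL of oxidized LDL (Ox-LDL), which gave 6 groups of 3 libraries. The doses of the 2 lipoproteins thus differ, and libraries of wild type mice were numbered before those of knockout mice, so that the order of the libraries and the genotype cannot be told apart. Before the treatment, BM cells had been cultured for 7 days with macrophage colony-stimulating factor or L-cell conditioned medium, and which of them was used for these libraries is not given in the sources used here. The p-values measure the spread between libraries of these 6 mice. They treat the 3 libraries of a mouse as separate samples unless the mouse enters the fit or its libraries are summed.

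MHC class I molecules are made of a heavy chain (*H2-K1*, *H2-D1* and the nonclassical *H2-T23*) and β2-microglobulin (*B2m*), and show peptides from inside the cell to CD8+ T cells. MHC class II molecules are made of an α and a β chain (*H2-Aa* and *H2-Ab1*, with *H2-Eb1* as a further β chain gene). They assemble with the invariant chain (*Cd74*), are loaded with peptide through H2-DM (*H2-DMa*), and show peptides from endocytosed material to CD4+ T cells. *Ciita* codes for the transactivator that class II transcription depends on, and macrophages raise both sets of genes in response to interferon-γ.

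Total counts were between 1043492 and 1768816 per library. The targeted gene *Slc7a7* was between 11.1 and 29.3 CPM (the count scaled to the size of the library) in the 9 libraries of wild type mice and between 2.22 and 10.9 CPM in the 9 libraries of knockout mice, and after summing the libraries of each mouse it was lower in the knockout (log2 fold change -1.80 ± 0.19 (SE), adjusted p = 0.011, edgeR). All 9 macrophage markers had counts. Their summed level was between 21130 and 35800 CPM in wild type and between 12550 and 20990 CPM in knockout macrophages. Most of it was *Lyz2*, whose locus holds the Cre transgene. The mean of *Lyz2* was 24212 CPM in wild type and 13218 CPM in knockout control medium, and 21120 and 8957 CPM with Ox-LDL. Without *Lyz2* the other 8 markers were between 4224 and 6679 CPM in wild type control medium and between 3428 and 5606 CPM with Ox-LDL. In knockout macrophages they were between 5681 and 6769 CPM and between 4045 and 5031 CPM, so that the knockout libraries of these media did not overlap. Most of this sum was *Csf1r* (knockout mean 2707 CPM, and 1903 CPM with Ox-LDL) and *Adgre1* (1869 and 1221 CPM). Not all of these markers were lower with Ox-LDL. In the knockout, *Mrc1* went from a mean of 92.98 to 167.9 CPM and *Mertk* from 47.22 to 67.3 CPM. Both were higher in wild type macrophages too (*Mrc1* from 87.36 to 149.1 CPM, *Mertk* from 49.42 to 75.76 CPM). The 9 dendritic cell markers together had between 1 and 24 counts per library, the 8 B cell markers between 3 and 28, and the 7 T and NK cell markers between 0 and 6. With Ox-LDL the summed dendritic cell markers were between 3.26 and 12.5 CPM in wild type and between 4.10 and 7.51 CPM in knockout macrophages, against 2.78 to 12.6 CPM and 10.3 to 14.45 CPM in control medium, which did not overlap in the knockout. Most of the knockout sum in control medium was *Itgax* (mean 9.12 CPM, and 1.66 CPM with Ox-LDL). Each of the other dendritic cell markers had at most 4 counts in a library. In the knockout these went both ways with Ox-LDL (*Flt3* from 0 to 1.56 CPM, *Zbtb46* from 1.215 to 0.613 CPM). The 8 neutrophil markers were between 72.8 and 126 CPM in wild type control medium and between 142 and 251.5 CPM with Ox-LDL, with no overlap, and between 51.9 and 140.4 CPM and between 62.9 and 114 CPM in knockout macrophages. The 4 markers of plasmacytoid dendritic cells were between 119 and 221 CPM over all libraries. Nearly all of this was *Tcf4* (mean 154.7 CPM) and *Bst2* (mean 18.4 CPM), while *Siglech* had at most 2 counts in a library and *Ly6d* 0. The part of these cell type markers in the levels of the MHC genes was not tested. In bulk RNA, fewer cells expressing a gene and less RNA of that gene per cell cannot be told apart.

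The class I genes *H2-D1*, *B2m* and *H2-K1* had the highest levels of the 10. Averaged over the 18 libraries and divided by transcript length, the levels were 821 CPM per kb for *H2-D1*, 786 for *B2m* and 341 for *H2-K1*, followed by 133 for *Cd74*, 61.9 for *H2-Ab1*, 46.9 for *H2-T23*, 38.2 for *H2-Aa* and 17.3 for *H2-Eb1*. *H2-DMa* (5.17 CPM per kb) and *Ciita* (1.66 CPM per kb) were the lowest, with at most 21 and 26 counts in a library. *H2-D1* and *B2m*, neighbours in this order, changed places between groups, with *B2m* ahead by 1004 to 917 CPM per kb in knockout control medium and behind by 596 to 780 CPM per kb in knockout macrophages with Ox-LDL. The plot of levels by library shows all 10 genes.

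**Figure D1:**
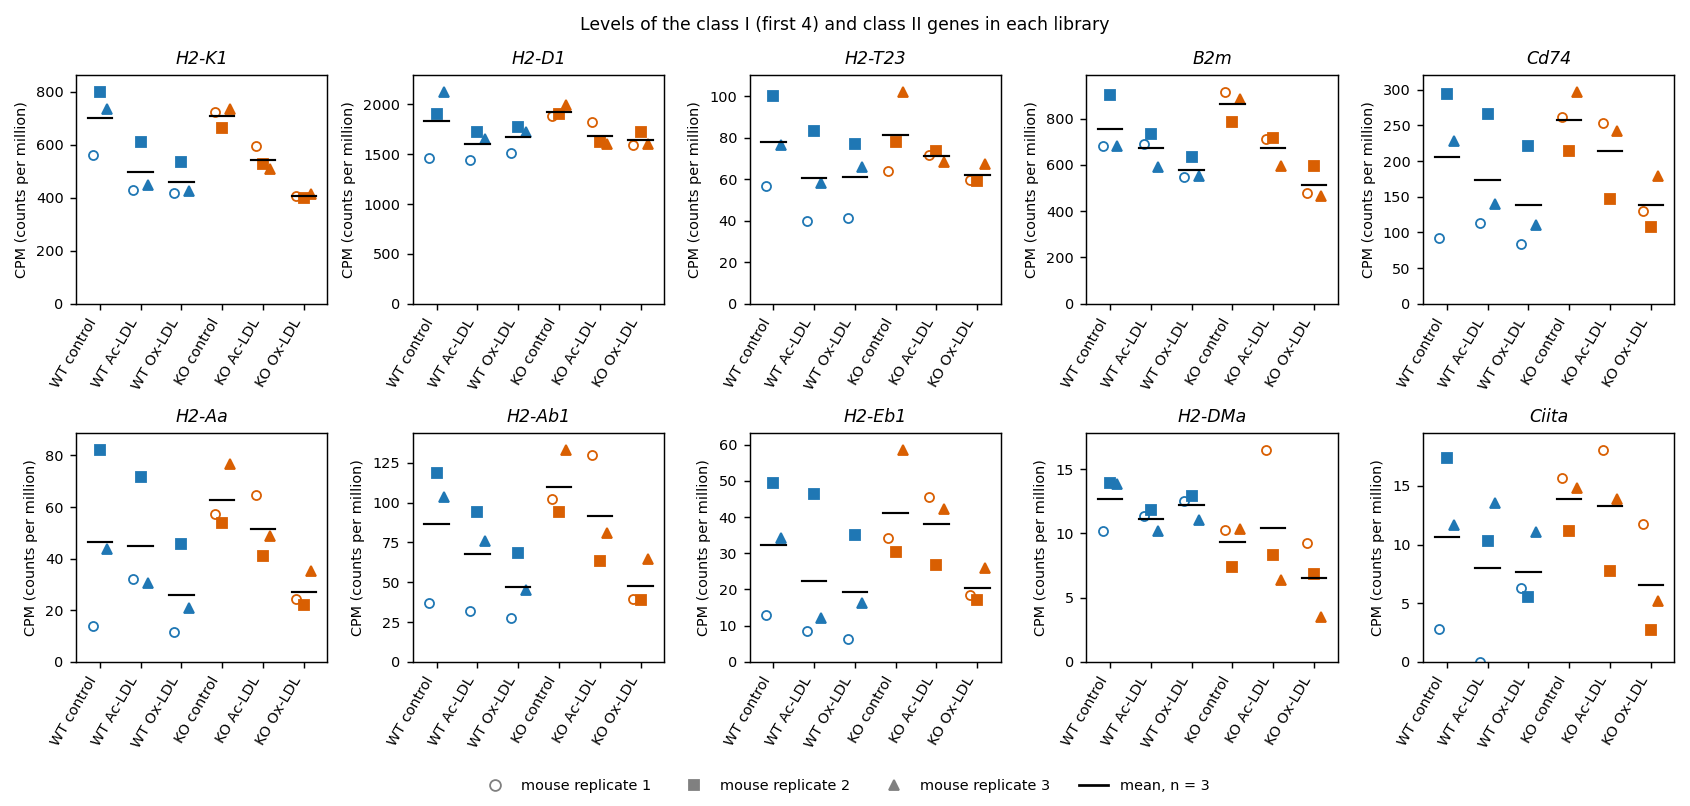
Level of each gene in CPM (linear axis from 0) in each of the 18 libraries, by genotype and medium, with one symbol for each mouse replicate and a line at the mean of 3. With Ox-LDL, the 3 knockout libraries of H2-K1 sat between 400 and 412 CPM, below every library in control medium. Wild type mouse replicate 1 was the lowest wild type mouse for Cd74 in all 3 media.

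The genes of the H2 family lie on chromosome 17, in the mouse MHC (*H2-DMa* at chr17:34119541-34139101, *H2-T23* at chr17:36029773-36032855, *H2-K1* at chr17:33996017-34000347, *H2-Ab1* at chr17:34257689-34269419, *H2-Aa* at chr17:34282744-34287823, *H2-Eb1* at chr17:34305867-34316674, *H2-D1* at chr17:35262730-35267499; GRCm38, GENCODE). *B2m* lies at chr2:122147686-122153083 and *Ciita* at chr16:10480059-10528418. Promoters of class II genes, and of class I genes in part, are known to share a module that ends in an X2 box and a Y box, and class I promoters also carry an interferon-stimulated response element (ISRE). The promoters of 5 genes whose levels are compared in what follows are given as the 170 bases before the start of the gene (RefSeq, GRCm38.p6, 5′ to 3′ on the strand of the gene), so that the boxes of class I and class II genes can be set side by side. Capitals mark a Y core (ATTGG, or CCAAT from the other strand), an X2 core (TGACG or TGATG, or CGTCA and CATCA from the other strand) or an ISRE core (GAANNGAAA, or TTTCNNTTC from the other strand), and some of these overlap.
H2-Aa, chr17:34287824-34287993, minus strand: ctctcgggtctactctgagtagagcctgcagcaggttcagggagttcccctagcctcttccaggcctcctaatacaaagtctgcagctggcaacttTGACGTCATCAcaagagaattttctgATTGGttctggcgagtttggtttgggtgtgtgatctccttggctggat
H2-Eb1, chr17:34305697-34305866, plus strand: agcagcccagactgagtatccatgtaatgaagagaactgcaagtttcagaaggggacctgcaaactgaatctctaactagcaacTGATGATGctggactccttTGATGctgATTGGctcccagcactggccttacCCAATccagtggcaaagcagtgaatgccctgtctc
H2-K1, chr17:34000348-34000517, minus strand: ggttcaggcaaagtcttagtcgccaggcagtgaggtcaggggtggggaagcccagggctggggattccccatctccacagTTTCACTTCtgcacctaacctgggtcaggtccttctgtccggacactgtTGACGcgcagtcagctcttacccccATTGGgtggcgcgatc
H2-D1, chr17:35262924-35263093, plus strand: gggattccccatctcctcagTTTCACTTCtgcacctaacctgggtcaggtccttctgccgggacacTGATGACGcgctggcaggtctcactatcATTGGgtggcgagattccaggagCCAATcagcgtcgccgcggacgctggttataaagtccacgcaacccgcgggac
B2m, chr2:122147517-122147686, plus strand: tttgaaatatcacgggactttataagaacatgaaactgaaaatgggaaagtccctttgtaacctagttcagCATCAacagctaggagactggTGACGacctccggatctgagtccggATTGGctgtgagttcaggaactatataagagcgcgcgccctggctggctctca
The Y core of *H2-Aa* starts 48 bases before the start of the gene and follows a run of 3 overlapping X2 cores. In *H2-Eb1* the first Y core is 59 bases before the start, and its X2 cores begin 86, 83 and 67 bases before it. *H2-K1* and *H2-D1* each hold 1 ISRE core of the same letters, 90 and 150 bases before the first start that RefSeq lists. For the other listed start of *H2-K1* the distance is 104 bases. The ISRE core was found in 7.52% of the 32851 promoters of 300 bases in the table. A Y core was found in 37.4%, an X2 core in 53.1% and both in 20.05% of them, so these matches only describe the windows. In *B2m* the Y core is 53 bases before the start, with X2 cores 99 and 78 bases before it. No ISRE core is marked in *B2m*, but its window holds gaaactgaaa, which the core searched for misses because of its longer spacing. The marks thus do not show that *B2m* lacks an ISRE. The start of *H2-D1* in RefSeq lies inside the longer GENCODE gene model. The table has promoters of 7 of the 10 genes, and *H2-Ab1*, *Ciita* and *Cd74* were without an entry. Those of *H2-T23* and *H2-DMa* are not printed. The class I gene *H2-T23* held 1 Y core, 1 X2 core and 0 ISRE cores in its 300 bases. For the class II gene *H2-DMa*, the first listed start had 0 Y, 0 X2 and 0 ISRE cores. Its other listed start had 1 Y core, 1 X2 core and 0 ISRE cores.

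In response to Ox-LDL, all 10 genes were lower than in control medium in the mean of both genotypes, and 3 of them passed the quasi-likelihood test of edgeR (an adjusted p under 0.05 over 12290 genes): *H2-K1*, *B2m* and *H2-Ab1*. The share of all tested genes that were lower and passed was 3.57%. The median log2 fold change was -0.46 for the 4 class I genes and -0.84 for the 6 class II genes, against 0.01 for all 12290 genes. Cells of the same mouse received each medium, and with the mouse as a block in the fit 7 of the 10 genes passed, with *H2-T23*, *Cd74*, *H2-Aa* and *H2-Eb1* in addition, against 6.95% of all genes that were lower and passed in that fit. *H2-K1*, *H2-T23*, *B2m*, *Cd74*, *H2-Aa*, *H2-Ab1* and *H2-Eb1* were lower with Ox-LDL within each of 6 mice, as were 7.49% of all genes.

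*H2-K1*, a classical class I heavy chain, was at 561, 800.1 and 734 CPM in control medium in wild type mouse replicates 1, 2 and 3, and at 419, 534 and 426 CPM with Ox-LDL. In knockout mice it was at 724, 662 and 733 CPM in control medium and at 407, 399.7 and 412 CPM with Ox-LDL. The control and Ox-LDL libraries did not overlap in either genotype. The share of all genes whose libraries do not overlap was not counted, so such statements, here and elsewhere, only describe the values. The log2 fold change was -0.70 ± 0.11 (SE) in the mean of both genotypes (adjusted p = 0.00013), which is 61.6% of the control level. *H2-K1* also passed within wild type (-0.60 ± 0.15, adjusted p = 0.047) and within knockout macrophages (-0.80 ± 0.15, adjusted p = 0.0034). In wild type macrophages the adjusted p was 0.29 and 0.16 without the control library of mouse replicate 2 or 3, 0.12 and 0.22 without the Ox-LDL library of mouse replicate 1 or 3, and 0.054 and 0.47 with mouse replicate 2 or 3 left out whole. In knockout macrophages it was 0.090, 0.075 and 0.11 with mouse replicate 1, 2 or 3 left out whole.

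*B2m*, the light chain shared by class I molecules, was at 682, 902 and 684 CPM in wild type control medium and at 547, 636 and 551 CPM with Ox-LDL. In knockout macrophages it was at 917, 787 and 886 CPM and at 478, 596 and 465 CPM. The libraries of both media did not overlap in either genotype. The log2 fold change of *B2m* was -0.57 ± 0.10 (adjusted p = 0.00091) in the mean of both genotypes, -0.39 ± 0.15 in wild type (adjusted p = 0.30, or 0.014 with the mouse as a block) and -0.75 ± 0.15 in knockout macrophages (adjusted p = 0.0041). Without the knockout Ox-LDL library of mouse replicate 3, the adjusted p in knockout macrophages was 0.054, and with mouse replicate 1 or 3 left out whole it was 0.17 and 0.18. The response of knockout macrophages minus that of wild type ones was -0.36 on the log2 scale (95% interval -0.79 to 0.06, adjusted p = 1, and 1 with the block).

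*H2-T23* and *H2-D1* were lower by less. *H2-T23*, which codes for the nonclassical molecule Qa-1, was between 56.6 and 102 CPM in the 6 control libraries and between 41.2 and 77.05 CPM in the 6 Ox-LDL libraries, and these ranges overlapped. Its log2 fold change was -0.36 ± 0.17 (adjusted p = 0.28), or 0.013 as the adjusted p with the mouse as a block. *H2-D1*, the other classical heavy chain, was at 1464, 1902 and 2129 CPM in wild type control medium and at 1510, 1770 and 1723 CPM with Ox-LDL. In knockout macrophages *H2-D1* was at 1884, 1902 and 1998 CPM and at 1592, 1720 and 1604 CPM. It was higher with Ox-LDL in wild type mouse replicate 1 and was lower in the other 5 mice, with a log2 fold change of -0.18 ± 0.10 (adjusted p = 0.37, or 0.055 with the block).

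The ratio of *H2-K1* to *H2-D1* counts is free of the scaling between libraries, and was looked at after the values of both genes were seen. There were 38.3 ± 3.8 (SD, n = 3) *H2-K1* counts for 100 of *H2-D1* in wild type control medium, 30.8 ± 4.2 after Ac-LDL and 27.55 ± 2.7 after Ox-LDL. In knockout macrophages the ratio was 36.6 ± 1.8, 32.2 ± 0.46 and 24.8 ± 1.4. Within mice, the log2 ratio changed by -0.52 ± 0.05 (SD, n = 6 mice) with Ox-LDL and by -0.25 ± 0.09 with Ac-LDL, and it was lower in 6 of 6 mice with either lipoprotein. Of the words of 31 bases in *H2-K1* transcripts, 22.8% also occur in transcripts of other genes, as do 26.7% of those of *H2-D1* and 24.45% of those of *H2-T23*, so that reads in these stretches were divided between the genes by salmon's estimate. Summed over 24 class I heavy chain genes of the H2 family, a sum that does not depend on this division within the family, the level was 2734 ± 474 CPM in wild type control medium and 2280 ± 209 CPM with Ox-LDL, and 2842 ± 109 and 2192 ± 51.3 CPM in knockout macrophages. The plot of ratios by mouse shows these changes.

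**Figure D2:**
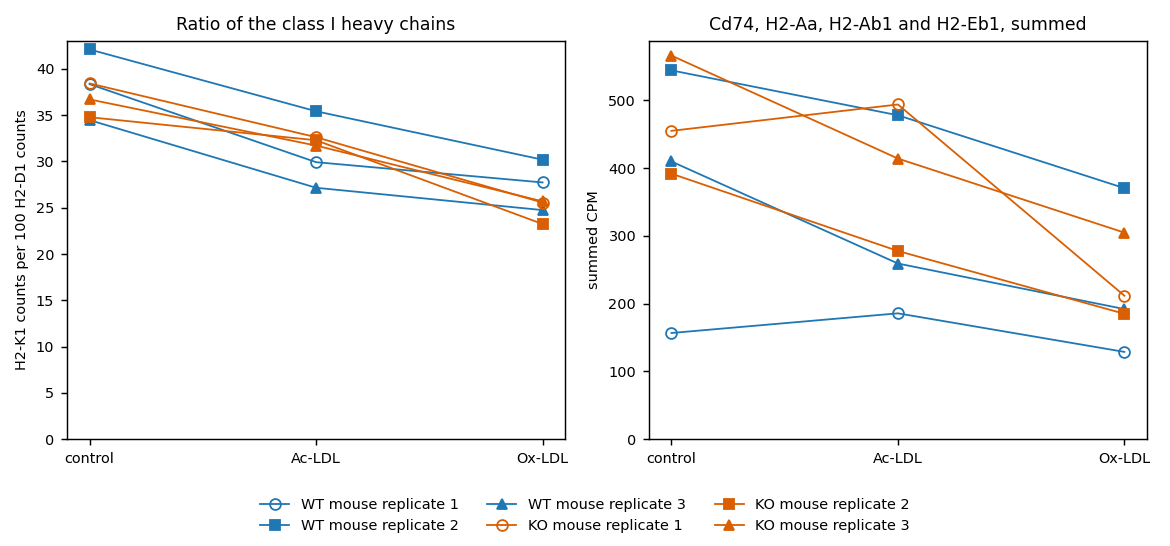
Left, H2-K1 counts for 100 H2-D1 counts in each mouse (y axis) by medium (x axis). Right, the summed CPM of Cd74, H2-Aa, H2-Ab1 and H2-Eb1. Each line joins the 3 libraries of a mouse. The ratio was lower with either lipoprotein in 6 of 6 mice, and the class II sum was lower with Ox-LDL than in control medium in each mouse.

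*H2-Ab1*, the β chain of the I-A molecule, was at 37.1, 118 and 103 CPM in wild type control medium and at 27.7, 68.4 and 44.9 CPM with Ox-LDL. In knockout macrophages it was at 102, 94.0 and 133 CPM in control medium and at 39.5, 38.9 and 64.7 CPM with Ox-LDL. The knockout libraries of both media did not overlap, and the wild type ones did. The log2 fold change of *H2-Ab1* in the mean of both genotypes was -1.02 ± 0.26 (adjusted p = 0.016), which is 49.2% of the control level. The adjusted p was 0.068 without the wild type control library of mouse replicate 2, 0.052 without the knockout control library of mouse replicate 3, and 0.0503 and 0.056 without the knockout Ox-LDL libraries of mouse replicates 1 and 2. With a mouse left out whole, it was 0.12 without wild type mouse replicate 3 and 0.068, 0.072 and 0.057 without knockout mouse replicates 1, 2 and 3. With the mouse as a block, the log2 fold change of *H2-Ab1* was -1.03 ± 0.13 (adjusted p = 1.2e-07).

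*H2-Aa*, the α chain of the same molecule, was at 13.9, 82.2 and 43.7 CPM in wild type control medium and at 11.6, 45.6 and 20.8 CPM with Ox-LDL. In knockout macrophages *H2-Aa* was at 57.2, 53.8 and 76.7 CPM and at 24.4, 21.9 and 35.2 CPM. As for *H2-Ab1*, only the knockout libraries were apart. The log2 fold change of *H2-Aa* was -1.002 ± 0.30 (adjusted p = 0.056), and -1.01 ± 0.15 with the mouse as a block (adjusted p = 4.2e-06).

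The invariant chain gene *Cd74* was at 92.8, 294 and 229 CPM in wild type control medium and at 83.2, 221 and 110.0 CPM with Ox-LDL. In knockout macrophages it was at 261, 214 and 298 CPM and at 129, 107 and 179 CPM, with no overlap. The log2 fold change was -0.73 ± 0.25 (adjusted p = 0.099), and -0.74 ± 0.09 with the mouse as a block (adjusted p = 1.3e-07). *H2-Eb1*, which codes for the β chain of I-E, was between 6.27 and 35.1 CPM in the 6 Ox-LDL libraries and between 12.99 and 58.6 CPM in the 6 control libraries. These are levels of RNA, and whether an I-E molecule forms in these cells was not measured. Its log2 fold change was -0.84 ± 0.35 (adjusted p = 0.20), and -0.88 ± 0.16 with the mouse as a block (adjusted p = 0.00018).

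*Ciita* and *H2-DMa* had few counts and did not pass with or without the block. *Ciita* was between 2.78 and 17.4 CPM in the 6 control libraries and between 2.73 and 11.8 CPM in the 6 Ox-LDL libraries, with a log2 fold change of -0.83 ± 0.42 (adjusted p = 0.33, or 0.072 with the block). It had 0 counts in 1 library, wild type mouse replicate 1 with Ac-LDL, where 3 counts would be 2.84 CPM. *H2-DMa* was between 7.42 and 13.9 CPM in control medium and between 3.46 and 12.9 CPM with Ox-LDL (-0.32 ± 0.25, adjusted p = 0.60). The *H2-DMa* annotation also overlaps *Brd2*, on the opposite strand, which had between 172 and 352 counts, and the strand setting of the counting is not given in the sources used here.

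**Figure D3:**
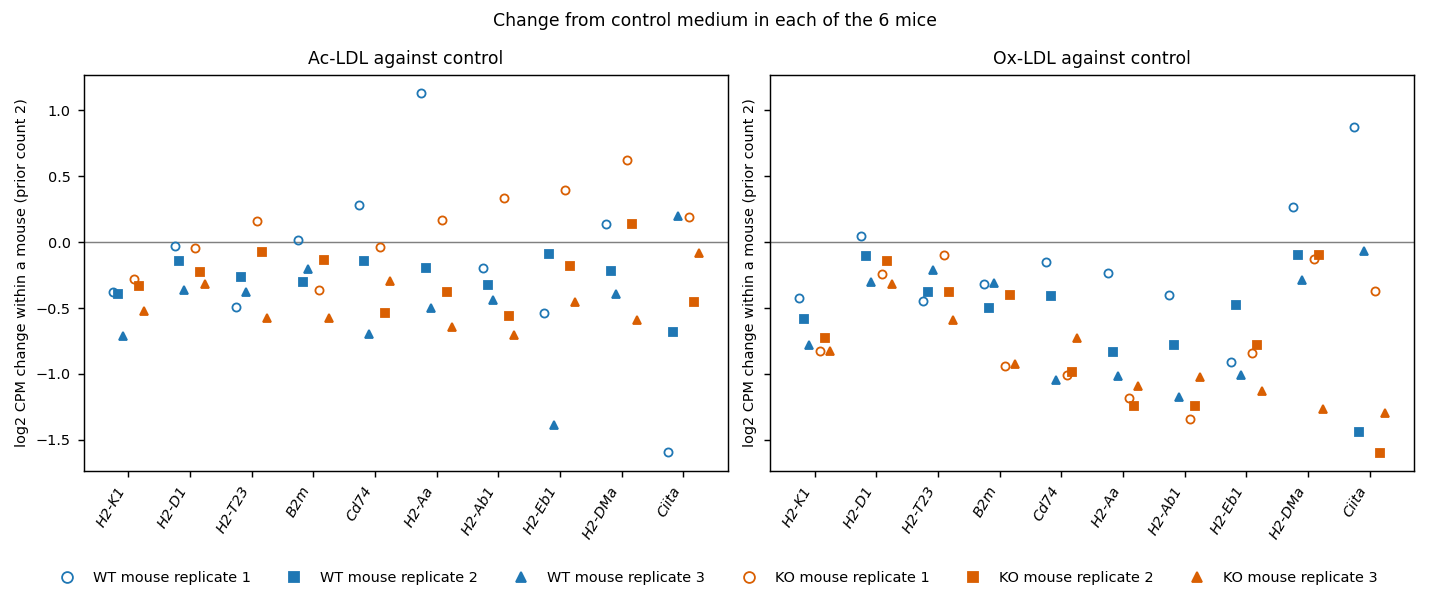
Change in log2 CPM (prior count 2) from control medium with Ac-LDL (left) and Ox-LDL (right) for each gene, with one point for each of the 6 mice. With Ox-LDL, 7 of the 10 genes were lower in 6 of 6 mice. With Ac-LDL, only H2-K1 and H2-D1 were.

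The level of the class II genes varied between mice of the same group. Wild type mouse replicate 1 had 156.8, 185.8 and 128.9 CPM of *Cd74*, *H2-Aa*, *H2-Ab1* and *H2-Eb1* together in PBS, Ac-LDL and Ox-LDL. In the other 5 mice this sum was between 392 and 566 CPM in control medium and between 185 and 370.5 CPM with Ox-LDL. Of the variance within groups, 89.7% lay between mice for *Cd74*, 91.4% for *H2-Eb1*, 84.6% for *H2-Ab1* and 83.9% for *H2-Aa*. For the other class II genes, *H2-DMa* and *Ciita*, it was 59% and 68.4%. Among the class I genes it was 88.2% for *H2-T23*, 82.35% for *H2-K1*, 71.7% for *H2-D1* and 56.5% for *B2m*. The median was 51.6% over 6754 genes with at least 20 CPM. The blocked fit takes these differences out of the error. With the 3 libraries of wild type mouse replicate 1 left out of the fit without a block, a choice made after seeing the data, 5 of the 10 genes passed for Ox-LDL, with *Cd74* at -0.77 (adjusted p = 0.012) and *H2-Aa* at -1.05 (adjusted p = 0.0058) in addition to *H2-K1*, *B2m* and *H2-Ab1*. Leaving out wild type mouse replicate 2, only its Ox-LDL library, or only the control library of wild type mouse replicate 1 gave 5 as well.

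**Figure D4:**
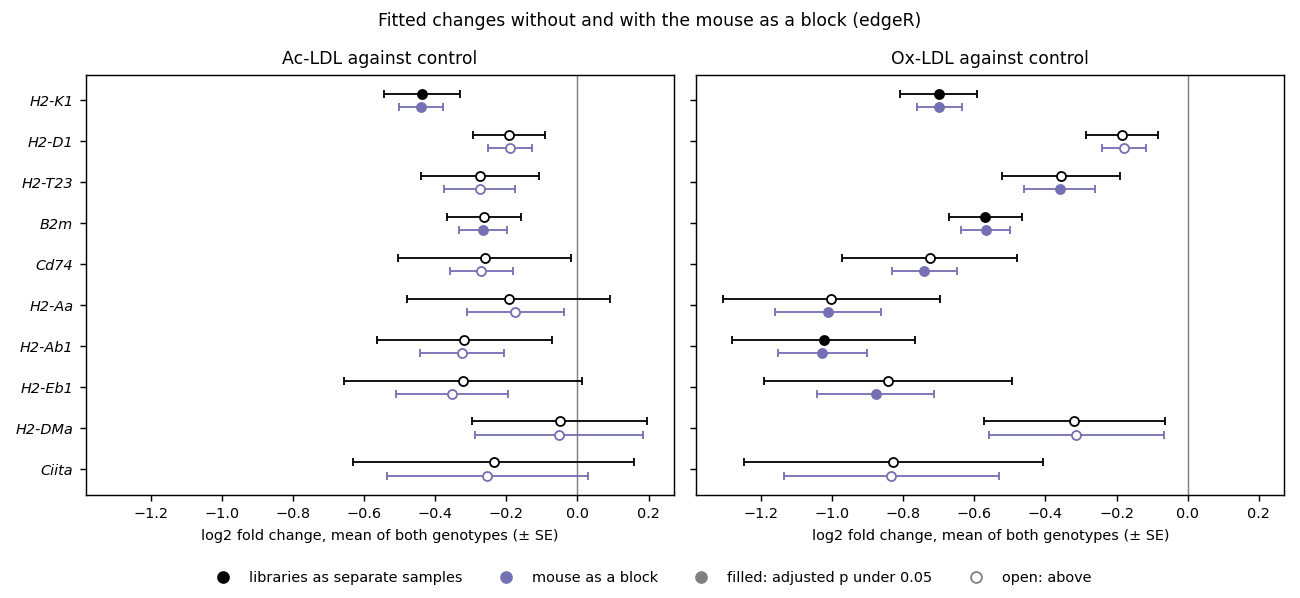
Log2 fold change (x axis, ± SE) of each gene with Ac-LDL (left) and Ox-LDL (right) against control medium in the mean of both genotypes, from the fit of 18 libraries as separate samples (black) and with the mouse as a block (purple). Filled points passed an adjusted p of 0.05. For Cd74 with Ox-LDL the estimate was -0.73 without and -0.74 with the block, and the SE was 0.25 and 0.09.

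Within genotypes, 1 of the 10 genes passed for Ox-LDL in wild type macrophages (*H2-K1*, against 1.07% of all genes that were lower and passed) and 5 with the mouse as a block (*H2-K1*, *B2m*, *Cd74*, *H2-Aa* and *H2-Ab1*, against 2.86%). In knockout macrophages 2 passed (*H2-K1* and *B2m*, against 1.66%) and 6 with the block, which added *Cd74*, *H2-Aa*, *H2-Ab1* and *H2-Eb1* (against 4.82%). The median log2 fold change of the 6 class II genes was -0.64 in wild type and -1.06 in knockout macrophages. A difference of the Ox-LDL response between knockout and wild type did not pass for any of the 10 genes, with 0 of 10 at an unadjusted p under 0.05 in edgeR and 0 called in DESeq2. It was -0.32 for *Cd74* (95% interval -1.34 to 0.70), -0.36 for *H2-Aa* (-1.62 to 0.91) and -0.19 for *H2-K1* (-0.64 to 0.25) on the log2 scale. No gene passed in this comparison (0% of all tested). With the block 1 of the 10 genes, *B2m*, had an unadjusted p under 0.05 (0.0097).

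With Ac-LDL, 1 of the 10 genes passed in the mean of both genotypes, *H2-K1*, against 1.44% of all genes that were lower and passed. *H2-K1* was at 430.3, 609 and 448 CPM with Ac-LDL in wild type and at 595, 525 and 509 CPM in knockout macrophages, and its log2 fold change from control was -0.44 ± 0.11 (adjusted p = 0.028). It was lower within 6 of 6 mice, as were 5.9% of all genes. The adjusted p lay between 0.076 and 0.11 without any of 8 single libraries (wild type control of mouse replicates 2 and 3, wild type Ac-LDL of 1 and 3, knockout control of 1 and 3, and knockout Ac-LDL of 2 and 3). It lay between 0.11 and 0.26 without wild type mouse replicate 3 or any 1 knockout mouse. With the mouse as a block, *B2m* passed as well (-0.26 ± 0.07, adjusted p = 0.012, against 3.5% of all genes). The 6 class II genes had a median log2 fold change of -0.25, and *H2-Aa* was higher with Ac-LDL in wild type mouse replicate 1 and knockout mouse replicate 1 and lower in the other 4 mice.

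Within genotypes, 0 of the 10 genes passed for Ac-LDL in wild type (0.472% of all genes in either direction) and 0 in knockout macrophages (0.521%). At an unadjusted p under 0.05 in edgeR, 1 gene in wild type and 2 in knockout macrophages were found, and DESeq2 called 0 in either. With the mouse as a block, *H2-K1* passed in wild type (-0.50 ± 0.09, adjusted p = 0.00058, against 1.43% of all genes that were lower and passed), and *H2-K1* (-0.38 ± 0.09, adjusted p = 0.0088) and *B2m* (-0.36 ± 0.09, adjusted p = 0.028) in knockout macrophages (against 1.7%). Without the wild type control library of mouse replicate 1, *H2-K1* passed in wild type without the block too (adjusted p = 0.047). A difference of the Ac-LDL response between knockout and wild type did not pass for any of the 10 genes (0% of all genes, with 0 of 10 at an unadjusted p under 0.05 and 0 in DESeq2).

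Ox-LDL at 100 μg/mL was also compared with Ac-LDL at 50 μg/mL, so that the lipoprotein and the dose cannot be told apart. In wild type macrophages 0 of the 10 genes passed (0.00814% of all genes), with 0 at an unadjusted p under 0.05 and 0 in DESeq2, and 0 with the block. The largest differences were -0.73 ± 0.44 for *H2-Aa* and -0.52 ± 0.38 for *H2-Ab1*. In knockout macrophages 0 passed (0.0651% of all genes), with 3 at an unadjusted p under 0.05 and 0 in DESeq2. With the mouse as a block 6 passed there, against 0.871% of all genes that were lower and passed: *H2-Ab1* (-0.88 ± 0.18, adjusted p = 0.005), *Cd74* (-0.61 ± 0.13, adjusted p = 0.0071), *H2-K1* (-0.41 ± 0.09, adjusted p = 0.010), *H2-Aa*, *B2m* and *H2-Eb1*. *H2-D1* differed by -0.04 ± 0.14 in knockout and by 0.06 ± 0.14 in wild type macrophages.

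Between the genotypes, 0 of the 10 genes passed in PBS (0.00814% of all genes), Ac-LDL (0.0163%) or Ox-LDL (0.00814%), or after summing the counts of each mouse (0.00789%). DESeq2 called 0 in each of these comparisons. At an unadjusted p under 0.05, edgeR found 0, 0, 1 and 0 of the 10 genes. The 1 gene was *H2-DMa* with Ox-LDL, at 12.5, 12.9 and 11.1 CPM in wild type and 9.24, 6.83 and 3.46 CPM in knockout macrophages (log2 fold change -0.95 ± 0.37, adjusted p = 0.93). Those libraries did not overlap and held at most 21 counts. After summing, the differences of the class I genes were between 0.02 and 0.10 on the log2 scale, with SE between 0.12 and 0.18. For *Cd74* the difference was 0.26 ± 0.27, for *H2-Ab1* 0.32 ± 0.28 and for *H2-Eb1* 0.42 ± 0.38, and for *H2-DMa*, the only negative one of the 10, -0.48 ± 0.24 (adjusted p = 0.98).

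Of 13 genes that supply and load class I peptides, 6 passed and were lower in the mean of both genotypes, 0 passed and were higher, against 3.57% of all genes that were lower and passed, and all 13 had a negative log2 fold change with Ox-LDL, with a median of -0.34. *Tapbp*, which codes for tapasin, was lower by a log2 fold change of -0.77 ± 0.12 (adjusted p = 0.00013), and the proteasome activator gene *Psme2* by -0.67 ± 0.11 (adjusted p = 0.00039). The peptide transporter gene *Tap2* (-0.60 ± 0.15) and the immunoproteasome genes *Psmb10* (-0.66 ± 0.19) and *Psmb8* (-0.46 ± 0.11) passed too, as did *Psme1* (-0.35 ± 0.10), and with the block *Calr* and *Erap1* were added (8 of 13, against 6.95% of all genes). With Ac-LDL, 2 of the 13 passed and were lower (against 1.44% of all genes), *Tapbp* (-0.57 ± 0.12) and *Psme2* (-0.45 ± 0.11).

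Of 17 other class I heavy chain genes, 11 were tested, of which 2 passed and were lower with either lipoprotein. Of all genes, 3.57% were lower and passed with Ox-LDL and 1.44% with Ac-LDL. *H2-Q4* was lower with Ox-LDL (-1.27 ± 0.17, adjusted p = 2.0e-05) and with Ac-LDL (-0.68 ± 0.16, adjusted p = 0.021). *H2-M2* passed in both comparisons as well, with a mean of 4.77 CPM in wild type and 6.56 CPM in knockout control medium, 0.808 and 0.709 CPM with Ac-LDL and 0.205 and 0 CPM with Ox-LDL, and at most 14 counts in a library. With the block, *H2-T24* was lower with Ox-LDL (-1.08 ± 0.23, adjusted p = 0.0011) and with Ac-LDL (-0.74 ± 0.22, adjusted p = 0.041), and *Fcgrt*, the neonatal Fc receptor, was higher with Ac-LDL (0.48 ± 0.12, adjusted p = 0.0099). In the blocked fit 6.95% of all genes were lower and passed with Ox-LDL and 3.5% with Ac-LDL, and 289 of 12290 were higher with Ac-LDL. Among 9 tested genes of the other class II pathway (*H2-DMb1*, *H2-DMb2*, 5 genes of lysosomal proteases, *Cd63* and *Cd9*), 0 passed with either lipoprotein, and the median log2 fold change with Ox-LDL was -0.06. Set against 3.57% and 1.44% of all genes, 0 of 9 is near the share of any genes. With the block, *Cd63* was lower with Ac-LDL, and 0 of the 9 passed with Ox-LDL. Surface molecules of costimulation and inhibition did not pass without the block (0 of 9 with either lipoprotein, also near those shares). With the block *Cd83* was higher with Ox-LDL (0.57 ± 0.19, adjusted p = 0.049), as were 539 of all 12290 genes.

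Of 25 genes that regulate MHC transcription and turnover, 5 passed and were lower with Ox-LDL (against 3.57% of all genes) and 1, *Nfya* (a subunit of the factor that binds the Y box), was higher (0.39 ± 0.09, adjusted p = 0.0093). Among the lower ones were *Socs3* (-2.28 ± 0.46), *Irf1* (-0.76 ± 0.16), *Spi1* (-0.57 ± 0.09) and *Ifngr2* (-0.42 ± 0.08). *Irf1* and *Ifngr2* act in the interferon-γ pathway, *Socs3* limits cytokine signalling, and *Spi1* codes for the myeloid factor PU.1. With the block 6 were lower (against 6.95% of all genes), with *Il10ra* (-0.40 ± 0.09) in addition. *Nlrc5*, the transactivator of class I genes, was at -0.12 ± 0.22 (adjusted p = 0.87). With Ac-LDL, 3 of the 25 passed and were lower (against 1.44% of all genes), *Socs3*, *Ifngr2* and *Spi1*. Of 20 tested genes of the interferon response, 11 passed and were lower with Ox-LDL (against 3.57% of all genes), 18 with the block (against 6.95%), and 0 were higher, with a median log2 fold change of -1.72. Those with the largest change that passed were *Cxcl10* (-3.32 ± 0.62), *Ifit3* (-2.77 ± 0.56), *Ifit1* (-2.20 ± 0.48), *Rsad2* (-2.04 ± 0.51), *Isg15* (-1.84 ± 0.51) and *Gbp2* (-1.81 ± 0.28). With Ac-LDL, 1 of the 20 passed, *Gbp2* (-1.04 ± 0.25, against 1.44% of all genes), and 8 with the block (against 3.5%). The part of these genes in the levels of the MHC genes was not tested.

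**Figure D5:**
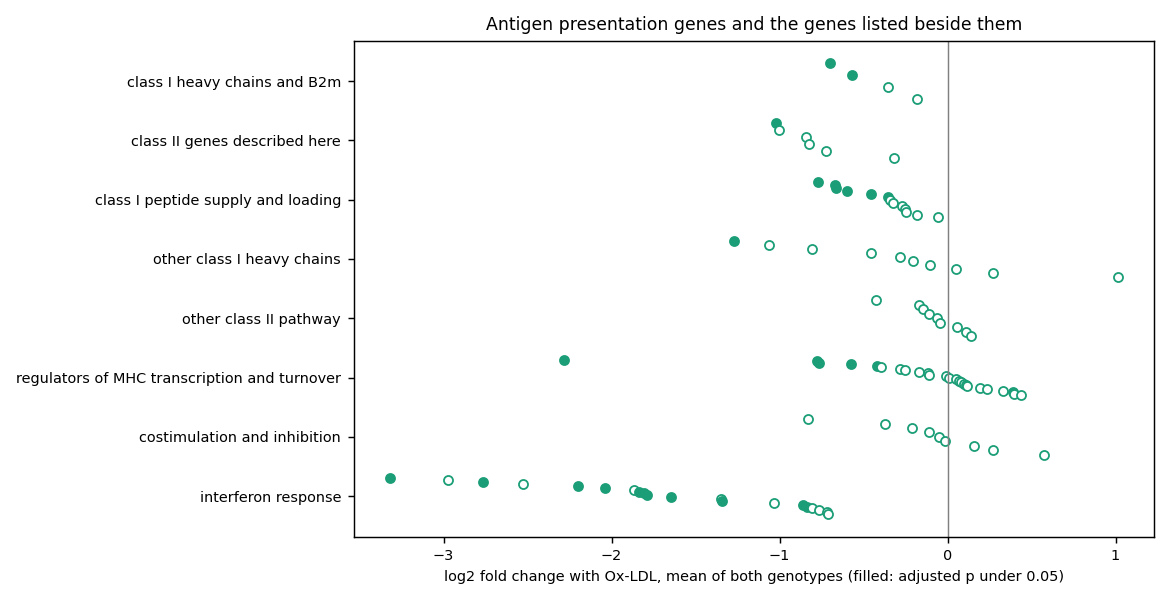
Log2 fold change with Ox-LDL in the mean of both genotypes (x axis) for the tested genes of each list (rows), with 1 point for each gene, filled where the adjusted p was under 0.05. H2-M2, at 0 counts in the 3 knockout libraries with Ox-LDL, is not drawn. The interferon response genes reached from -3.32 upward with a median of -1.72, and the 13 class I peptide supply genes were all below 0.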

How the data were processed

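RNA-Seq libraries were prepared by the authors from total RNA with a stranded kit and sequenced single-end. Per the paper's methods, reads were trimmed with Trim Galore and aligned to mm10 with STAR within the nf-core pipeline, and genes were quantified on Ensembl release 93. Salmon is named in the submitters' processing notes. Tool versions and the strand setting are not given in the sources used here. Deposited by the authors were unnormalized estimated counts of genes from salmon for 18 samples (0 columns of other samples). They were rounded, and genes were filtered with filterByExpr (minimum count 2, minimum total count 10). Group means of the 6 groups were fitted by quasi-likelihood in edgeR 4.0.16 (R 4.3.3) after TMM scaling, and p-values were adjusted (Benjamini-Hochberg) across the whole table at a threshold of 0.05. "Passed" means an adjusted p below it. 14 comparisons were made. For genotype over all media, the counts of each mouse were summed (12673 genes tested). CPM are TMM-scaled, and lengths are of the longest coding transcript. The labels give each mouse number in all 3 media of a genotype, and the deviations of libraries of the same mouse from their group means had correlations from 0.11 to 0.56 (18 of 18 pairs over 0.1), so that a fit with the mouse as a block is given beside results it changes. No libraries of a group agreed within sampling noise (chi-square divided by its degrees of freedom between 2.03 and 12.7). The limit given for 0 counts covers counting error alone. Alternatives were DESeq2 (version 1.42.0), other scalings and filters, unrounded counts, only the libraries compared, and each library left out.

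The genes and lists were chosen with earlier results of these data known. Named beside the 10 genes were, of each list, those that passed (at most the 6 with the largest log2 fold change per list and comparison), and the 5 genes whose log2 CPM was most like that of *Cd74* and *B2m*. *Cd83* was named after its value was seen, as were genes added by the block. The values of 1 listed gene are not reported here. The fit without a block was tested on simulated counts drawn with no differences between mice. That test does not cover the fit with the mouse as a block. Figures were drawn with matplotlib 3.10.9.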

Additional observations from a re-analysis of the deposited data

How the results depend on the processing

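All 29 fold changes recomputed, those of genes that passed with or without the block, kept their direction in each of 574 values, in which 36 calls were lost and 48 gained. They were chosen because they passed in these same counts, so a kept direction says little. *H2-D1*, *H2-DMa* and *Ciita* were not among them. *H2-K1* and *B2m* with Ox-LDL in the mean of both genotypes passed in 26 of 26 alternatives (adjusted p up to 0.0043 and 0.022), and *H2-Ab1* in 17 of 26 (up to 0.12, and 0.0502 with DESeq2). For Ox-LDL in the mean of both genotypes, 3 of the 10 genes passed as reported, 6 without a filter, 7 with the mouse as a replicate block, and 2 to 5 with a library or mouse left out. In wild type 1 passed, and 0 with scaling by library size alone, 0 with only the libraries compared, 4 without a filter, 5 with the block and 0 to 1 with a library or mouse left out. In knockout macrophages 2 passed, and 6 without a filter, 6 with only the libraries compared, 6 with the block and 0 to 2 with a library or mouse left out. For Ox-LDL against Ac-LDL in knockout macrophages 0 passed, and 3 without a filter and 6 with the block. For Ac-LDL in the mean of both genotypes 1 passed, and 0 with library size alone, 2 with the block and 0 to 1 with a library or mouse left out. For Ac-LDL 1 passed with the block in wild type, where 0 to 1 did with a library or mouse left out, and 2 with the block in knockout macrophages, against 0 without it. The cause of these changes was not tested. The pairing by mouse raised the calls over all genes from 662 to 1393 for Ox-LDL and from 246 to 719 for Ac-LDL. In the other comparisons 0 of the 10 genes passed under each alternative run, the genotype comparisons (which cannot be blocked by mouse) included. *Ciita* and *H2-DMa* had at most 26 counts in a library, and what change could be detected at this depth was not tested.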

Other observations

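Across the 18 libraries, the genes whose log2 CPM was most like that of *Cd74*, among 6746 other genes with at least 20 CPM, were *Tbc1d8* (Pearson's r = 0.93, Spearman's rho = 0.93), *Parp9* (0.91 and 0.86), *Trafd1* (0.90 and 0.92), *Sirpa* (0.90 and 0.91) and *Cybb* (0.88 and 0.88). Those most like *B2m* were *Ifitm3* (0.89 and 0.86), *Pnp* (0.87 and 0.81), *Ube2l6* (0.87 and 0.87), *Jpt1* (0.86 and 0.85) and *Slc2a6* (0.85 and 0.83). The 18 libraries come from 6 mice and share media, so these values describe likeness only. Among the 10 genes, *Cd74* was most like *H2-Aa* (r = 0.96), *H2-Ab1* (0.94) and *H2-Eb1* (0.94), and its r was 0.63 with *Ciita* and 0.13 with *H2-DMa*. *H2-T23*, a class I gene, had an r of 0.91 with *H2-Eb1* and of 0.50 with *B2m*. *H2-K1* had an r of 0.87 with *B2m* and 0.75 with *H2-D1*.

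The share of the variance within groups that lay between mice was above that of 90.9% of genes for *H2-K1*, 96.1% for *H2-T23*, 97.0% for *Cd74* and 98.1% for *H2-Eb1*, and above that of 57.0% for *B2m*. For the class II genes *H2-DMa* and *Ciita* it was above that of 60.6% and 73.6% of genes.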
